A study of Mus musculus with 6 samples.

Results

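Chromosome segregation was examined through 44 genes of the spindle checkpoint, the kinetochore and chromosome condensation, with the mitotic kinases, the activators of anaphase and the cytokinesis genes that act beside them. They were taken by gene symbol, from a list drawn up with earlier results of these data known. All 44 were among the 21853 genes of the deposited table. Their RNA was measured in 6 libraries of mouse embryonic fibroblasts, connective tissue cells derived from embryos, of the strain C57BL/6J and an age labelled 12 days. Cells of both groups carried a knockout of xCT, the cystine transporter subunit encoded by Slc7a11, which stood at 0.007 to 0.037 FPKM in every library. The control group (3 libraries) received water and the other group (3 libraries) red clover extract, abbreviated RCE. The sources used here do not state the dose, the length of treatment or how the knockout was made, and every value below compares cells that all lack xCT. The unit, FPKM, divides the fragments of a gene by transcript length and library size, so levels of different genes can be set side by side. Nothing in the labels says that libraries of a group came from separate cultures, and p-values therefore measure the spread among these libraries only. In such bulk RNA, more dividing cells and more of a transcript in each dividing cell cannot be told apart.

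Before a cell divides, condensin and topoisomerase II compact its chromosomes, and a kinetochore assembles on the centromeric chromatin that the histone CENP-A marks. The NDC80 complex holds spindle microtubules there, while the checkpoint proteins BUB1, BUBR1, BUB3, MAD2 and the kinase MPS1 keep CDC20 from activating the anaphase-promoting complex until each chromosome is attached. Once CDC20 is free, the complex marks securin and mitotic cyclins for destruction, separase opens cohesin, and the central spindle guides cytokinesis. Most of these genes are transcribed in late S phase, G2 and mitosis and are quiet in resting fibroblasts. The DREAM complex represses them out of cycle, and its MuvB core, together with B-MYB and FOXM1, activates them late in the cycle. MuvB binds the cell cycle homology region (CHR), a short element close to the start site, often near a CCAAT box bound by NF-Y.

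RefSeq start sites (build GRCm38.p6, the build that mm10 names) were in hand for 38 of the 44 genes, in 43 windows from 250 bases before to 50 bases after a start. Those without a window were Foxm1, Spc24, Incenp, Tpx2, Aurkb and Smc4. The letters TTTGAA, the common form of the CHR, occurred on either strand in 22 of the 38 genes (57.9%), against 20.2% of all 27025 genes with a window. Another form, TTTAAA, occurred in 8 (21.1%, against 14.9%), and CCAAT in 27 (71.1%, against 41.1%). TTTAAA reads the same on both strands, and a match of one motif is never itself a match of another, though neighbouring matches can share bases. Most TTTGAA matches lay close to the start: 21 of the 38 genes (55.3%) had one from 100 bases before the start onward, against 9.23% of all genes. Matches of TTTGAA and CCAAT occurred together in 20 genes, and 7 genes had no match at all. A match is a description of the sequence only, and binding was not measured.

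The 100 bases just before the start are shown for 5 genes whose TTTGAA match lies inside that stretch. They were limited to genes with a single window and a stretch that reaches little into the gene as GENCODE M21 draws it. Ube2c, Prc1 and Bub3 also had such a match but are not shown. The Ube2c stretch reached 31 bases into its gene, and Prc1 and Bub3 had more than 1 window. Capitals mark TTTGAA and CCAAT, or their reverse complements TTCAAA and ATTGG. Their positions are chr4:118437344-118437443, minus strand (Cdc20), chr5:45669825-45669924, plus strand (Ncapg), chr11:99024190-99024289, minus strand (Top2a), chr15:102296193-102296292, plus strand (Espl1) and chr7:135716380-135716479, minus strand (Mki67).
Cdc20: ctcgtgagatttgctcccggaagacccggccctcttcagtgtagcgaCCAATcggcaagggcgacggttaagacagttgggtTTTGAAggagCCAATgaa
Ncapg: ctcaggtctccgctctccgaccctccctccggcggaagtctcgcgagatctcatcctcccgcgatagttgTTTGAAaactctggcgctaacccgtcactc
Top2a: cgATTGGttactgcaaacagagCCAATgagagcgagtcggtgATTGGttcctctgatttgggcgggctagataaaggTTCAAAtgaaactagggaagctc
Espl1: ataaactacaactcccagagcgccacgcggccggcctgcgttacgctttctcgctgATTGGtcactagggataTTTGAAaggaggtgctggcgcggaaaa
Mki67: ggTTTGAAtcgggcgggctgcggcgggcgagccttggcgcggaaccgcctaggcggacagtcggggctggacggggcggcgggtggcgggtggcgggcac

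Within these stretches the TTTGAA match began 18, 30, 23 and 27 bases before the start in Cdc20, Ncapg, Top2a and Espl1, and 98 bases before it in Mki67. The last 9, 6 and 27 bases of the Cdc20, Ncapg and Espl1 stretches lie inside the gene as GENCODE M21 draws it. Another TTTGAA lies further upstream in Mki67 and in Top2a. CCAAT boxes in these stretches numbered 2 in Cdc20, 3 in Top2a, 1 in Espl1 and 0 in Ncapg and Mki67. Their RNA levels are given with their roles below.

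**Figure D1:**
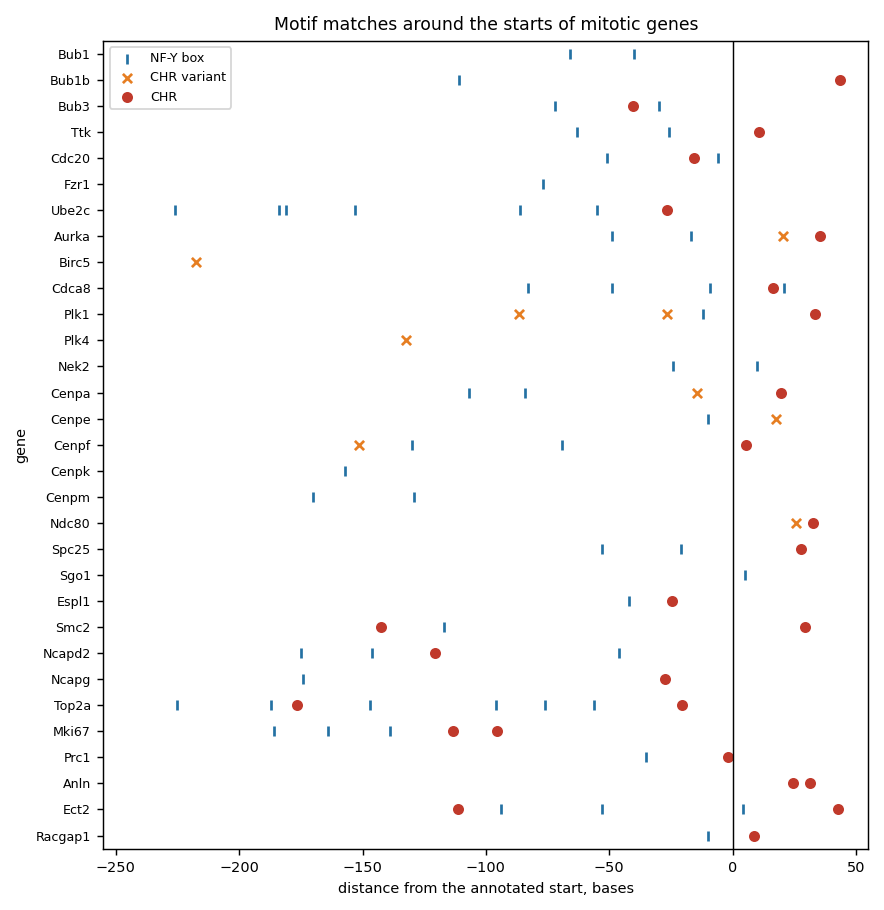
Motif matches in RefSeq promoter windows, each gene drawn from its most upstream start, with the distance of the match's middle from the start in bases on the horizontal axis and the 31 genes with a match on the vertical axis. Filled circles are the common CHR form, crosses its variant and bars the NF-Y box, on either strand. The common CHR form crowds around the start, from 100 bases before it onward in 21 of 38 genes with a window.

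With the extract, the whole set stood higher. The group mean was above the control mean for all 44 genes, and the level was higher in 3 of 3 pairs of same-numbered libraries for each of them. For 41 genes all 3 RCE values lay above all 3 control values, which held for 31.2% of all genes averaging 1 FPKM or more. The share of all genes with a higher mean, or higher in 3 of 3 pairs, was not computed. The groups overlapped for Fzr1, Plk1 and Foxm1. Only for these genes did the pairs add anything, since groups that lie apart are higher in every possible pairing. Summed over the set, the libraries held 168, 158 and 157 FPKM in the controls and 212, 213 and 206 FPKM with the extract. The ratio of group means ran from 1.04 (Fzr1) to 1.97 (Espl1) with a median of 1.42, where the median of all genes averaging 1 FPKM or more was 1.06.

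Changes were tested with limma on log2(FPKM + 1) over all 10870 genes that averaged 1 FPKM or more, and p-values were adjusted over all of them. Values in single libraries are listed in the order of replicates 1, 2 and 3. Every change below is RCE minus control on that scale, which understates the fold of genes near 1 FPKM. Of the 36 genes of the set that reached the filter, 29 rose at an adjusted p below 0.05 and 0 fell. Among all genes tested, 17.6% were called higher. In the same 36 genes, 33 had RCE values that all exceeded the controls, which held for 31.2% of all genes tested. Knstrn reached the filter only through its RCE values, since its control mean was 0.840 FPKM. The median change was 0.34, beside 0.08 for all genes. The other 8 genes averaged 0.579 to 0.942 FPKM and were left out by the filter. The filter at 1 FPKM fell between Mybl2 (0.942 FPKM) and Knstrn (1.06 FPKM). With no filter, 34 of 44 rose and 0 fell, beside 11.3% of 17334 genes called higher, and all 8 low genes were among the 34. Of the 36 genes, 7 did not pass: Bub3, Ube2c, Fzr1, Plk1, Cenpa, Pttg1 and Foxm1.

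Median-of-ratios scaling, which brought the median change of all genes from 0.08 to 0.00, left 24 of 36 higher, beside 8.38% of all genes. Over all genes it turned 1910 higher and 736 lower calls into 911 and 1082. Under the same scaling the median change of the set was 0.28, and Fzr1 alone turned negative. When the dependence of each library on transcript GC content was removed, 23 were higher, beside 8.22% of all genes. That correction also recentred the libraries, and the median change of all genes became -0.0001. With replicate number as a block, 35 of 36 were higher, all except Fzr1, beside 46.6% of all genes. The block pairs libraries by their number, a pairing that the values bear out for replicate 1 only. The block gave 33 with median-of-ratios scaling and 32 with GC correction, beside 26.4% and 25.3%. The share called in the set exceeded the background share in each of these fits, and 0 genes of the set were called lower in any of them. Of the 29 calls, 18 held in each of 22 alternatives that tested the gene. The other 11 were Tpx2, Mki67, Birc5, Smc4, Plk4, Incenp, Cenpm, Cdca8, Knstrn, Mad2l1 and Spc25, and quantile normalization ended the first 9 of these, leaving 20, beside 7.22% of all genes. Leaving out 1 library ended some of these calls, in fits that also rest on fewer libraries. Over all genes, 8.36% and 7.76% were called higher without control replicates 2 and 3, and 6.30% without RCE replicate 2. The share was 8.27% without RCE replicate 3, 18.8% without RCE replicate 1 and 14.6% without control replicate 1. How much of a loss came from the library itself was not tested. Without control replicate 2, 9 were lost (Tpx2, Mki67, Birc5, Smc4, Plk4, Incenp, Cenpm, Knstrn and Spc25), and without control replicate 3 the same genes with Cdca8 in place of Spc25. Without RCE replicate 2, 8 were lost, the first 8 of the 11. Leaving out RCE replicate 3 ended Tpx2, Mki67, Birc5 and Smc4, RCE replicate 1 Tpx2 and Mki67, and control replicate 1 Birc5 and Smc4.

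**Figure D2:**
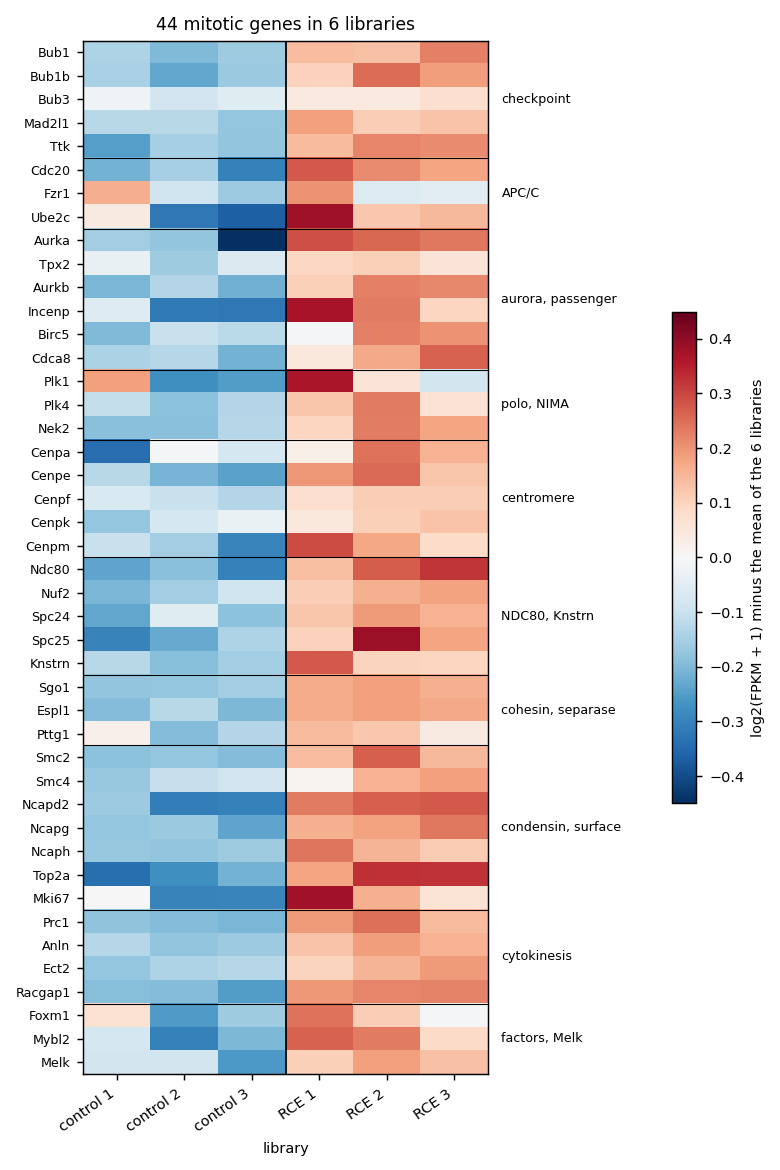
Level of each of the 44 genes in the 6 libraries, as log2(FPKM + 1) minus the mean of that gene over the libraries, red above and blue below it. Genes are grouped by role from top to bottom. The 3 RCE columns are higher than the 3 control columns for 41 genes, and replicate 1 is the highest library of both groups for 12 genes, among them Fzr1, Plk1 and Ube2c.

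Among the checkpoint genes, the kinases and the MAD2 gene rose and Bub3 did not pass. Bub1 encodes a kinase that recruits the other checkpoint proteins to the kinetochore (ENSMUSG00000027379, chromosome 2, 127801122 to 127831865, minus strand). Its level was 1.64, 1.53 and 1.60 FPKM in the water group, against 2.21, 2.19 and 2.41 FPKM in the RCE group. The groups did not overlap, and the mean went from 1.59 ± 0.0551 to 2.27 ± 0.122 FPKM (SD, n = 3), 1.42-fold (change 0.33 ± 0.0436 SE, adjusted p = 0.00419). Mad2l1 encodes MAD2, the inhibitor that captures CDC20, and was at 1.43, 1.43 and 1.34 FPKM without and 2.01, 1.86 and 1.89 FPKM with RCE (change 0.28 ± 0.0400 SE, adjusted p = 0.00528). GC correction ended the call (adjusted p = 0.0967). Bub1b, which encodes BUBR1 of the mitotic checkpoint complex, rose 1.47-fold (0.36, adjusted p = 0.00531). Bub3, the WD-repeat partner of both BUB1 and BUBR1, was by far the most abundant of the checkpoint genes, at 18.4, 17.5 and 17.9 FPKM without and 19.2, 19.2 and 19.7 FPKM with RCE. Its RCE values were all above the controls by a small margin (1.08-fold, change 0.11 ± 0.0401 SE, adjusted p = 0.1003, 95% interval 0.01 to 0.20), and with the replicate block it passed (adjusted p = 0.00990). With block and median-of-ratios scaling or GC correction together it did not (changes 0.03 and 0.03, adjusted p = 0.466 and 0.421). Ttk encodes MPS1, the kinase at the head of the checkpoint, and lay below the filter at 0.495, 0.603 and 0.570 FPKM without and 0.958, 1.07 and 1.06 FPKM with RCE. Without the filter it rose (1.85-fold, change 0.38 ± 0.0374 SE, adjusted p = 0.00297), the largest ratio of the checkpoint genes.

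Of the genes that switch the anaphase-promoting complex on, Cdc20 rose, Ube2c passed once replicate number was a block and Fzr1 in neither fit. Cdc20 encodes the mitotic activator that the checkpoint restrains (ENSMUSG00000006398, chromosome 4, 118432901 to 118437352, minus strand). It stood at 6.88, 7.24 and 6.40 FPKM in the water group, against 10.1, 9.57 and 9.31 FPKM in the RCE group. All RCE values exceeded the controls, and the mean went from 6.84 ± 0.423 to 9.65 ± 0.377 FPKM (SD, n = 3), 1.41-fold (change 0.44 ± 0.0554 SE, adjusted p = 0.00361). The call held under all alternatives. Ube2c, the ubiquitin-conjugating enzyme that works with the complex, was at 5.58, 4.13 and 3.97 FPKM without and 7.34, 5.97 and 6.08 FPKM with RCE. The groups lay apart, but replicate 1 was the highest library of each, which widened the spread (1.42-fold, change 0.43 ± 0.125 SE, adjusted p = 0.0506, 95% interval 0.13 to 0.73, and adjusted p = 7.72e-05 with the block). Fzr1 encodes CDH1, the activator that takes over from CDC20 in late mitosis and keeps the complex active through G1. Its level, 12.3, 10.2 and 9.63 FPKM without and 12.7, 10.4 and 10.5 FPKM with RCE, followed the replicate number more than the treatment, and the groups overlapped. The change was 0.06 (95% interval -0.21 to 0.32, adjusted p = 0.738, and 0.124 with the block). It turned to -0.02 with median-of-ratios scaling and -0.0058 with quantile normalization.

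All 6 genes of the aurora kinases and the chromosomal passenger complex rose. Aurka encodes the aurora kinase of centrosomes and spindle poles (ENSMUSG00000027496, chromosome 2, 172356190 to 172370535, minus strand), and was at 6.01, 5.89 and 4.71 FPKM in the water group, against 8.53, 8.32 and 8.19 FPKM in the RCE group. Control replicate 3 was the lowest library, and the 3 RCE values were close to each other. The mean went from 5.54 ± 0.716 to 8.34 ± 0.169 FPKM (SD, n = 3), 1.51-fold (change 0.52 ± 0.0833 SE, adjusted p = 0.00771). Tpx2, which activates aurora A on spindle microtubules, was the most abundant of this group at 14.1 and 16.0 FPKM and changed least (1.13-fold, 0.17, adjusted p = 0.0442). Aurkb encodes the catalytic kinase of the passenger complex, which releases faulty microtubule attachments. It stood at 1.49, 1.62 and 1.47 FPKM without and 2.09, 2.36 and 2.33 FPKM with RCE, with no overlap (1.48-fold, change 0.37 ± 0.0496 SE, adjusted p = 0.00458). Its 3 partners rose as well, the scaffold Incenp 1.45-fold (0.47, adjusted p = 0.0197), survivin (Birc5) 1.37-fold (0.28, adjusted p = 0.0337) and borealin (Cdca8) 1.34-fold (0.32, adjusted p = 0.0156). Under median-of-ratios scaling Tpx2, Incenp and Birc5 were no longer called (adjusted p = 0.307, 0.0535 and 0.0584). The call of Tpx2 also ended with GC correction (adjusted p = 0.327), and those of Tpx2 and Birc5 with no filter (0.0507 and 0.0503). Aurka and Aurkb were called in every alternative that tested them.

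The kinases Nek2 and Plk4 rose, whereas the values of Plk1 did not separate the groups. Nek2, a centrosome kinase that prepares the poles to part, was at 1.69, 1.69 and 1.80 FPKM in the water group, against 2.27, 2.59 and 2.46 FPKM in the RCE group (1.41-fold, change 0.34 ± 0.0482 SE, adjusted p = 0.00541). Plk4, the kinase that starts centriole duplication, was at 2.08, 1.92 and 2.04 FPKM without and 2.62, 2.90 and 2.47 FPKM with RCE (1.32-fold, change 0.28 ± 0.0547 SE, adjusted p = 0.0145). For both, the lowest RCE library was above the highest control. The call of Plk4 ended with GC correction (adjusted p = 0.107). Plk1, the polo-like kinase that acts from mitotic entry to cytokinesis, was at 4.23, 2.80 and 2.87 FPKM without and 4.92, 3.79 and 3.35 FPKM with RCE. Control replicate 1 was higher than RCE replicates 2 and 3, so the groups overlapped, although each RCE library was above its same-numbered control. Without control replicate 1 the change of 0.23 (95% interval -0.16 to 0.62, adjusted p = 0.353) became 0.38, and without RCE replicate 1 it became 0.10. It did not pass in either case, and with the replicate block, which removes the difference between numbers, it passed (adjusted p = 0.00246).

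At the centromere, the kinesin Cenpe and Cenpm rose, Cenpa passed once replicate number was a block, and Cenpf and Cenpk lay below the filter. Cenpe encodes a kinesin that carries chromosomes to the spindle equator (ENSMUSG00000045328, chromosome 3, 135212537 to 135273611, plus strand), and was at 2.09, 1.91 and 1.85 FPKM in the water group, against 2.85, 3.01 and 2.66 FPKM in the RCE group (1.46-fold, change 0.38 ± 0.0525 SE, adjusted p = 0.00489). Cenpm, a subunit of the inner kinetochore network, was at 1.24, 1.15 and 0.954 FPKM without and 1.94, 1.71 and 1.54 FPKM with RCE (1.55-fold, change 0.37 ± 0.0742 SE, adjusted p = 0.0165). Neither gene's groups overlapped. Cenpa encodes the histone variant that marks the centromere, and was at 1.90, 2.66 and 2.48 FPKM without and 2.75, 3.36 and 3.09 FPKM with RCE. Here replicate 1 was the lowest library of each group, and the lowest RCE value was only just above the highest control (1.31-fold, change 0.29 ± 0.101 SE, adjusted p = 0.0884, 95% interval 0.04 to 0.53, and adjusted p = 6.94e-04 with the block). Cenpf, a large protein of the outer kinetochore, was at 0.553, 0.519 and 0.487 FPKM without and 0.717, 0.757 and 0.757 FPKM with RCE. Cenpk, another inner kinetochore subunit, was at 0.533, 0.638 and 0.694 FPKM without and 0.785, 0.862 and 0.887 FPKM with RCE. With no filter both rose (Cenpf 1.43-fold, 0.20, adjusted p = 0.00571, and Cenpk 1.36-fold, 0.19, adjusted p = 0.0386).

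In the outer kinetochore, all 4 subunits of the NDC80 complex and Knstrn rose, Spc24 in the fit with no filter. Ndc80, the subunit that contacts the microtubule (ENSMUSG00000024056, chromosome 17, 71496100 to 71526857, minus strand), was at 1.74, 1.83 and 1.62 FPKM in the water group, against 2.54, 2.90 and 3.04 FPKM in the RCE group. It went from 1.73 ± 0.109 to 2.83 ± 0.252 FPKM (SD, n = 3), 1.63-fold, without overlap (change 0.48 ± 0.0613 SE, adjusted p = 0.00367), and the call held in every alternative. Its coiled-coil partner Nuf2 was at 1.11, 1.18 and 1.29 FPKM without and 1.63, 1.72 and 1.76 FPKM with RCE (1.42-fold, change 0.30 ± 0.0451 SE, adjusted p = 0.00629). The other 2 subunits anchor the complex to the inner kinetochore. Spc25 rose 1.46-fold (0.44, adjusted p = 0.0132), and Spc24, at 0.452, 0.646 and 0.505 FPKM without and 0.862, 0.950 and 0.905 FPKM with RCE, rose 1.69-fold (0.31, adjusted p = 0.0124). Without control replicate 2, Spc25 was no longer called (adjusted p = 0.0526). Knstrn, a small kinetochore-associated protein, rose 1.53-fold (0.31, adjusted p = 0.0133), a call that ended with GC correction (adjusted p = 0.0969).

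**Figure D3:**
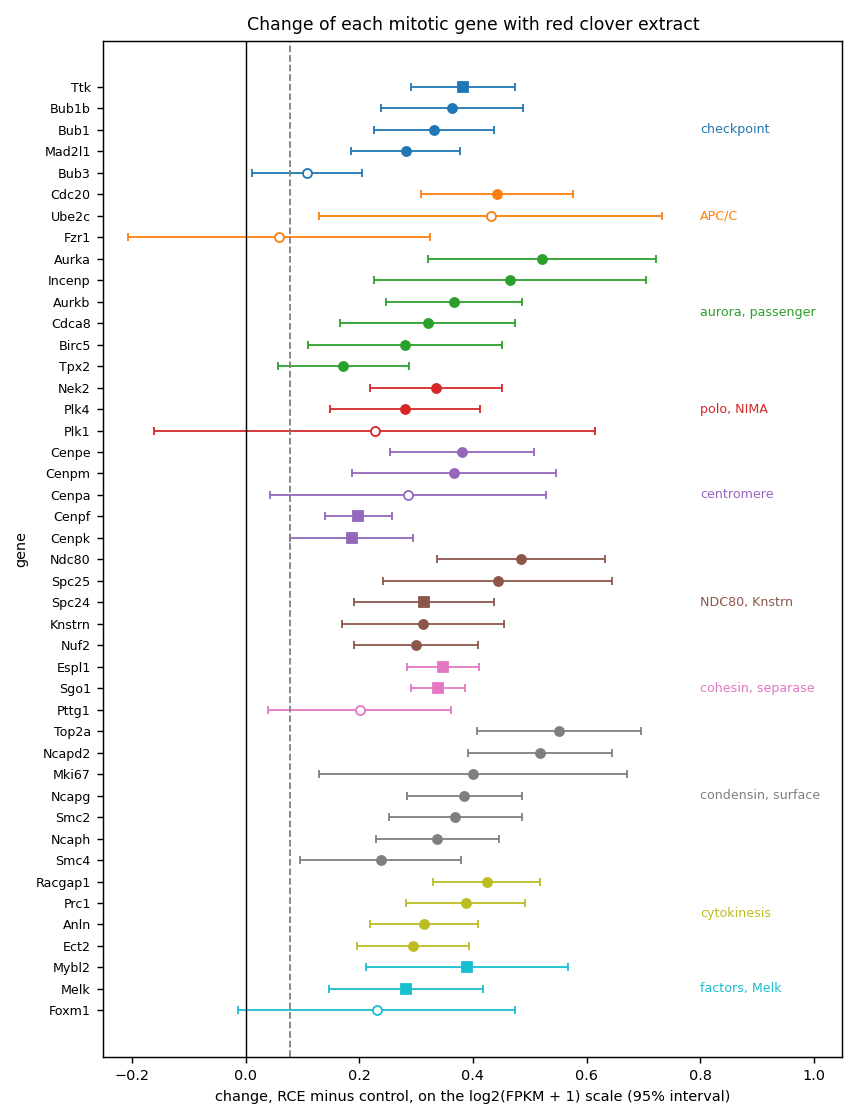
Change of each gene as RCE minus control on the log2(FPKM + 1) scale, with its 95% interval from limma, grouped by role from top to bottom. Circles are genes tested at 1 FPKM or more, squares the 8 genes below it from the fit with no filter, filled symbols an adjusted p below 0.05, and the dashed line the median of all genes tested (0.08). All 44 changes are above 0, and the intervals of Fzr1, Plk1 and Foxm1 include 0.

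The genes that hold and then cut cohesin included the largest ratios of the set, at low levels. Espl1 encodes separase, the protease that opens cohesin at anaphase (ENSMUSG00000058290, chromosome 15, 102296266 to 102324357, plus strand). It was at 0.370, 0.437 and 0.362 FPKM in the water group, against 0.760, 0.782 and 0.763 FPKM in the RCE group. Every RCE value was well above every control, and the mean went from 0.390 ± 0.0412 to 0.768 ± 0.0119 FPKM (SD, n = 3), 1.97-fold. Sgo1, the shugoshin that protects cohesin at centromeres, was at 0.468, 0.473 and 0.491 FPKM without and 0.862, 0.887 and 0.854 FPKM with RCE, 1.82-fold. Both lay below the filter and rose in the fit without it (Espl1 change 0.35 ± 0.0259 SE, adjusted p = 0.00130, and Sgo1 change 0.34 ± 0.0194 SE, adjusted p = 5.44e-04). Pttg1, securin, the inhibitor of separase, was more abundant at 6.36, 5.33 and 5.60 FPKM without and 6.99, 6.86 and 6.44 FPKM with RCE. The groups did not overlap, though by a small distance, and the change did not pass (1.17-fold, change 0.20 ± 0.0668 SE, adjusted p = 0.0752, 95% interval 0.04 to 0.36, and adjusted p = 0.00397 with the block). With block and GC correction together the change of Pttg1 was 0.11 and did not pass (adjusted p = 0.0519). The difference between Pttg1 and Espl1 was not tested.

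Condensin I and the chromosome scaffold rose throughout, 7 of 7 genes. The SMC subunits Smc2 and Smc4 form the ring's arms, and Ncapd2, Ncapg and Ncaph are the regulatory subunits of condensin I. Ncapd2 (ENSMUSG00000038252, chromosome 6, 125168007 to 125191701, minus strand) was at 3.78, 3.32 and 3.33 FPKM in the water group, against 5.29, 5.45 and 5.47 FPKM in the RCE group, and went from 3.48 ± 0.264 to 5.40 ± 0.0997 FPKM (SD, n = 3), 1.55-fold (change 0.52 ± 0.0525 SE, adjusted p = 0.00176). Ncapg was at 1.24, 1.25 and 1.14 FPKM without and 1.82, 1.86 and 1.98 FPKM with RCE (1.56-fold, change 0.39 ± 0.0418 SE, adjusted p = 0.00224). In both genes the lowest RCE library exceeded the highest control by more than the spread within either group. Ncaph rose 1.41-fold (0.34, adjusted p = 0.00429), Smc2 1.35-fold (0.37, adjusted p = 0.00419) and Smc4 1.20-fold (0.24, adjusted p = 0.0311). Smc4 was the most abundant gene of this group, and it was no longer called under median-of-ratios scaling (adjusted p = 0.0813) and GC correction (adjusted p = 0.0546). Top2a, topoisomerase II alpha, which untangles sister DNA (ENSMUSG00000020914, chromosome 11, 98992943 to 99024189, minus strand), had the largest log2 change of the set and was singled out after its values were seen. It was at 5.36, 5.64 and 5.95 FPKM in the water group, against 8.10, 9.09 and 9.08 FPKM in the RCE group, and went from 5.65 ± 0.292 to 8.75 ± 0.570 FPKM (SD, n = 3), 1.55-fold (change 0.55 ± 0.0601 SE, adjusted p = 0.00225). Mki67, which encodes the proliferation marker Ki-67 that coats mitotic chromosomes, was at 2.56, 1.90 and 1.91 FPKM without and 3.64, 2.99 and 2.73 FPKM with RCE (1.47-fold, change 0.40 ± 0.113 SE, adjusted p = 0.0457). Replicate 1 was the highest library of each group, and Mki67 was no longer called under median-of-ratios scaling (adjusted p = 0.109), GC correction (adjusted p = 0.165) and no filter (adjusted p = 0.0716).

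All 4 cytokinesis genes rose, with little spread. Racgap1, a GTPase-activating subunit of the centralspindlin complex (ENSMUSG00000023015, chromosome 15, 99620496 to 99651656, minus strand), had the smallest p of the 36 genes tested. It was at 5.03, 5.02 and 4.79 FPKM in the water group, against 6.88, 7.02 and 7.04 FPKM in the RCE group, and went from 4.95 ± 0.138 to 6.98 ± 0.0854 FPKM (SD, n = 3), 1.41-fold (change 0.42 ± 0.0389 SE, adjusted p = 0.00123). Prc1, which bundles the microtubules of the central spindle, was at 7.60, 7.52 and 7.45 FPKM without and 10.1, 10.6 and 9.76 FPKM with RCE (1.35-fold, change 0.39 ± 0.0433 SE, adjusted p = 0.00248). The other 2 act at the cleavage furrow. The exchange factor Ect2, which activates RhoA there, rose 1.36-fold (0.30, adjusted p = 0.00489) and the scaffold anillin (Anln) 1.28-fold (0.31, adjusted p = 0.00364). These 4 calls held in every alternative that tested them.

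The regulators were mixed in their tests. Foxm1, the forkhead factor that drives late cell cycle genes, was at 4.66, 3.53 and 3.83 FPKM in the water group, against 5.39, 4.83 and 4.36 FPKM in the RCE group. Control replicate 1 was above RCE replicate 3, so the groups overlapped (1.21-fold, change 0.23 ± 0.101 SE, adjusted p = 0.148, 95% interval -0.01 to 0.47), and with the replicate block it passed (adjusted p = 0.00343). Mybl2 encodes B-MYB, the partner of MuvB, and was at 0.817, 0.558 and 0.671 FPKM without and 1.31, 1.26 and 1.04 FPKM with RCE. Melk, a kinase of dividing cells, was at 0.714, 0.714 and 0.518 FPKM without and 0.957, 1.06 and 0.989 FPKM with RCE. Both lay below the filter, had groups that did not overlap, and rose without it (Mybl2 1.76-fold, 0.39, adjusted p = 0.0197, and Melk 1.55-fold, 0.28, adjusted p = 0.0223).

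Across roles, the median ratio of group means was 1.82 for the cohesin and separase genes, 1.55 for the regulators, 1.53 for NDC80 and Knstrn, 1.47 for condensin and the chromosome scaffold and 1.43 for the centromere genes. It was 1.42 for the checkpoint, 1.41 for the anaphase activators, 1.41 for the aurora and passenger genes, 1.36 for cytokinesis and 1.32 for the polo and NIMA kinases. These groups hold 3 to 7 genes each, and no difference between them was tested. Summed within each role, the lowest RCE library was above the highest control library in all 10 groups. The closest were the polo and NIMA kinases, at 8.001 and 8.28 FPKM, and the regulators, at 6.19 and 6.39 FPKM. Some sums come mostly from 1 abundant gene that did not pass. Such were Bub3 (means 17.9 and 19.4 FPKM) in the checkpoint, Pttg1 (5.76 and 6.76 FPKM) among the cohesin and separase genes and Foxm1 (4.01 and 4.86 FPKM) among the regulators. No such share was computed for sums of other genes, and of single genes tested 31.2% had RCE values all above the controls.

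The ratio was larger where the level was lower. Across the 44 genes, Spearman's rho between the mean level and the ratio was -0.63, given as a description of genes that share the same 6 libraries. The 5 genes with the largest ratios (Espl1, Ttk, Sgo1, Mybl2 and Spc24) averaged 0.579 to 0.942 FPKM. Of the 4 genes averaging 10 FPKM or more, Bub3, Tpx2, Smc4 and Fzr1, none exceeded 1.20-fold. On the longest annotated transcript, the smallest estimate for any gene and library was 41.5 fragments (Spc24 in control replicate 1). A shorter transcript would give a lower estimate. The part of low fragment counts in the larger ratios was not tested.

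**Figure D4:**
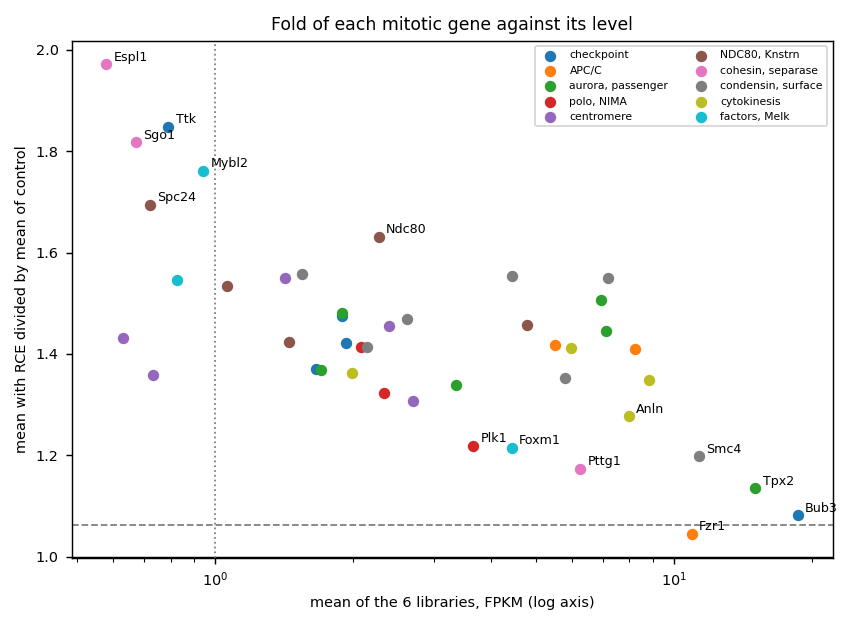
Ratio of the RCE mean to the control mean for each of the 44 genes against its mean level in FPKM on a log axis, coloured by role. The dashed line is the median ratio of all genes tested (1.06), the solid line 1 and the dotted line the filter at 1 FPKM. The 5 largest ratios lie left of the filter, and Fzr1 is the only gene below the dashed line.

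Replicate 1 stood apart from replicates 2 and 3 in both groups, and the genes of the set did so in different directions. On the log2(FPKM + 1) scale the difference between replicate 1 and the mean of the others, averaged over the groups, ran from -0.24 (Cenpa) to 0.41 (Plk1). It was positive for 24 genes, among them Ube2c (0.31), Mki67 (0.28) and Fzr1 (0.28). Across the 44 genes it correlated with the GC content of the transcript (Pearson's r = 0.54, Spearman's rho = 0.47, as a description), whereas between GC content and the change with the extract r was 0.03. Plk1, Fzr1 and Mki67 hold 56.0%, 59.9% and 46.6% GC and Cenpa 48.7%, beside a median of 46.7% in the set. What the replicate number stands for was not given, and its part in these values was not tested beyond the block. Without replicate 1 of both groups, 35 of 36 genes rose, Fzr1 being the exception, beside 40.1% of all genes. Without control replicate 1 alone, Ube2c, Pttg1 and Foxm1 passed (adjusted p = 0.0128, 0.0251 and 0.0464), and the change of Cenpa fell to 0.19. In the genes that passed, replicate 1 was the highest library of both groups. That fit therefore dropped their highest control and kept their highest RCE library. Without RCE replicate 1 alone, none of them passed (Ube2c 0.35, adjusted p = 0.0892, and Pttg1 0.18, adjusted p = 0.132). The change of Cenpa was then 0.34.

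**Figure D5:**
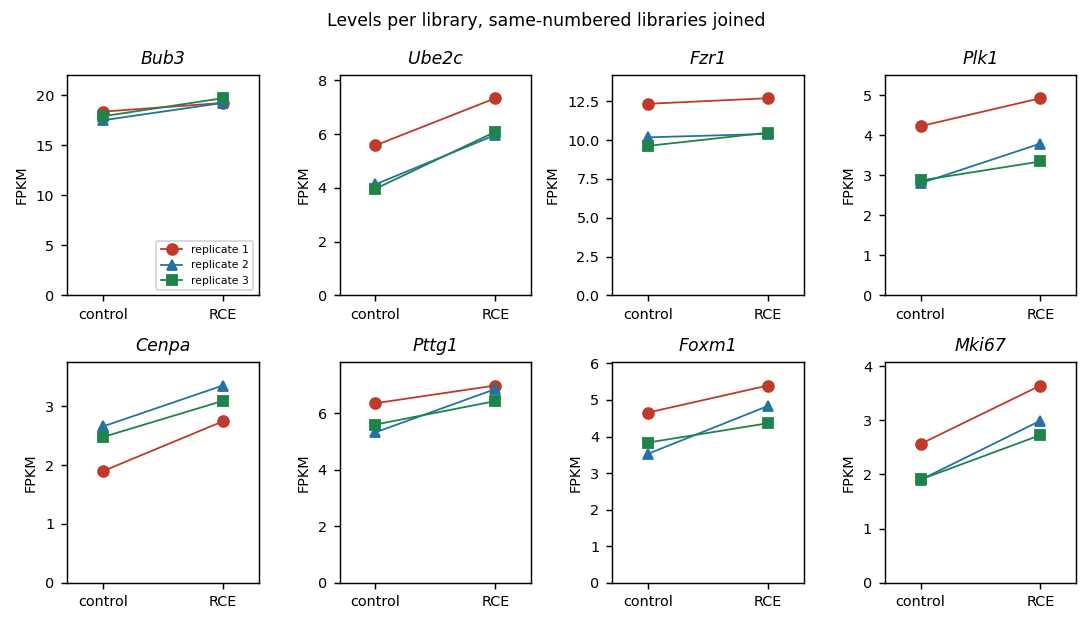
FPKM of the 7 genes that did not pass and of Mki67, with control on the left and RCE on the right of each panel, vertical axes starting at 0 FPKM, and lines joining libraries with the same replicate number. Each line rises from left to right, while the distance between replicate 1 and the others is larger than every rise for Plk1 and Fzr1.

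Other genes of the same machinery, listed by role, were compared in the same fit. Their counts stand beside 17.6% of all genes called higher and 6.77% called lower, or 46.6% and 15.9% with the block. Of 15 further checkpoint and kinetochore genes tested, 7 rose and 0 fell (median change 0.22, and 15 higher with the block). They included Zwilch, part of the complex that brings dynein to kinetochores (0.40, adjusted p = 0.00143), Ska2 of the microtubule-binding SKA complex (0.42, adjusted p = 0.00332) and astrin (Spag5, 0.44, adjusted p = 0.00387). Of 11 further centromere genes, 6 rose (9 with the block) and 1 fell (median 0.26), with Hjurp, the chaperone that loads CENP-A, going from 9.79 ± 0.203 to 12.1 ± 0.456 FPKM (0.28, adjusted p = 0.00738). The gene that fell was Cenpb, which binds centromeric satellite DNA (-0.20, adjusted p = 0.0228). Median-of-ratios scaling left 6 of these 11 centromere genes higher, GC correction 3 and quantile normalization 1, with 1 lower in each. Over all genes these fits called 8.38%, 8.22% and 7.22% higher. Of 3 condensin II subunits, Ncapg2 (0.31, adjusted p = 0.00873) and Ncapd3 (0.20, adjusted p = 0.0148) rose and Ncaph2 was at 0.03 (adjusted p = 0.638).

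The anaphase-promoting complex and cohesin had the smallest median changes of these lists. Of 16 genes of the anaphase-promoting complex and its inhibitor, 4 rose and 0 fell (median 0.06, and -0.02 with median-of-ratios scaling), a share near the background of 17.6%. Median-of-ratios scaling, GC correction and quantile normalization each left 1 higher. Fbxo5, which encodes the inhibitor EMI1, had the largest change of them, from 0.906 ± 0.0716 to 1.75 ± 0.132 FPKM (0.53, adjusted p = 0.00156), and reached the filter only through its RCE values. Among 12 genes of cohesin and its regulators, 1 rose, Pds5b (0.26, adjusted p = 0.00760), and 0 fell (median 0.09, and 0.02 with median-of-ratios scaling). With the replicate block 7 of 16 and 6 of 12 were higher, near the 46.6% of all genes. Block and median-of-ratios scaling together gave 4 higher and 4 lower in the complex and 3 higher and 1 lower in cohesin, beside 26.4% and 27.7% of all genes. Of 11 other polo-like and NIMA-related kinases and cofactors, 5 rose and 2 fell (median 0.11, and 7 higher and 2 lower with the block), led by Ajuba, a LIM protein that binds aurora A (0.78, adjusted p = 1.43e-04), and Bora, which activates aurora A toward Plk1 (0.45, adjusted p = 0.00205). The polo-like kinase Plk2 also rose, from 132 to 176 FPKM (0.41, adjusted p = 0.00224). Plk3, a polo-like kinase of stress responses, fell from 28.6 to 18.4 FPKM (-0.61, adjusted p = 0.00309), and Nek7 fell as well (-0.22, adjusted p = 0.0118).

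Spindle and cytokinesis genes outside the set rose in 10 of 15 cases with 0 lower (median 0.28, and 14 higher with the block), among them Ckap2 (0.67, adjusted p = 9.03e-04), Hmmr (0.38, adjusted p = 0.00291) and Dlgap5 (0.32, adjusted p = 0.00526). Of 12 mitotic cyclins and genes of their kinase control, 4 rose and 0 fell (median 0.25, and 9 higher with the block), with cyclin A2 (Ccna2) at 0.52, adjusted p = 0.00115. Of 11 genes of the DREAM and MuvB complexes, 5 rose and 0 fell (median 0.20, and 10 higher with the block). They were led by Mybl1 (0.57, adjusted p = 6.20e-04), Rbl1, which encodes p107 (0.41, adjusted p = 0.00348), and the MuvB subunit Lin9 (0.40, adjusted p = 0.00540). The nearest set in function, 36 tested genes of DNA replication, had 25 higher and 0 lower with a median of 0.36, beside 0.34 here, and the difference between the sets was not tested. The block gave 34 higher and 1 lower, and GC correction 21 higher and 1 lower.

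Markers of other cells were low in both groups, and most fibroblast markers were high. Among the fibroblast markers, Pdgfra (2.59 to 3.00 FPKM) and Lum (1.36 to 2.11 FPKM) were low as well. In the other lists the highest were Cd68 (2.49 to 3.76 FPKM), Krt18 (1.14 to 2.45 FPKM), Cd14 (1.315 to 2.055 FPKM) and Kdr (1.055 to 1.33 FPKM). The 11 fibroblast markers summed to 6249 to 6642 FPKM in the controls and 5683 to 6047 FPKM with the extract. Of these, 2, Pdgfrb and Dcn, fell while 0 rose, beside 6.77% of all genes called lower. With the replicate block 8 of the 11 were lower, with median-of-ratios scaling 4 and with both 9, beside 15.9%, 9.96% and 27.7% of all genes. The 5 haematopoietic markers summed to 5.32 to 5.99 and 4.78 to 5.79 FPKM, the 4 endothelial ones to 1.42 to 1.66 and 1.33 to 1.60 FPKM, and the 5 epithelial ones to 1.98 to 2.89 and 1.25 to 2.41 FPKM. Their defining genes Ptprc, Pecam1 and Epcam did not exceed 0.083 FPKM in any library, and Krt5 was listed at 0 in the 3 control libraries. The part of the fibroblast markers' fall in the results above was not tested. Depth, recovered from steps between low values, was 45700000 to 59000000 fragments per library and did not separate the groups, and no library was left out.

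Exons of 10 of the 44 genes overlap an exon of a gene on the opposite strand in GENCODE M21, and whether the deposited values were counted by strand was not given. Among these are Cdc20 (with Elovl1), Ube2c (with Tnnc2), Fzr1 (with Mfsd12) and Prc1 (with Rccd1), and what the partners add to their values was not tested. For Foxm1, Ncapd2 and Top2a an exon overlaps a gene on the same strand.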

How the data were processed

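Per the labels' protocols, total RNA of 6 samples, 3 per group, was isolated with TRIzol, and a stranded TruSeq kit for mRNA gave the libraries. The authors deposited FPKM, 1 value per gene and library. The unit comes from the submitters' processing notes, which list STAR 2.5.4, Cufflinks, Cuffdiff 2.2.1 and the build mm10, and from the values. The sources used here give no annotation, filter or strand setting. FPKM are shares, so abundant transcripts that grow lower every other value of their library.

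The table was fitted with limma 3.58.1 in R 4.3.3 with its trend option on log2 of FPKM plus 1, for the 10870 genes averaging 1 FPKM or more. Tests were 2-sided with Benjamini-Hochberg adjustment over all genes and a threshold of 0.05. The code was tested on simulated data. Where a symbol stood on more than 1 row (24 cases, 0 among the 44 genes), list counts used the row with the highest mean. Identifiers, coordinates, transcript length and GC content came from GENCODE M21, where all 21853 identifiers matched. Depth was the value at which FPKM times length gave whole fragments, within 0.1, for single-transcript genes. Replicate numbers 1 to 3 stand in both groups, and same-numbered libraries counted as pairs. Deviations of same-numbered libraries from their group means correlated at 0.92, 0.62 and 0.68 across genes. Across numbers, the second RCE library reached 0.72 with the third control and the third RCE library 0.77 with the second. Both exceed the same-numbered values, so the pairing is borne out for replicate 1 only, and that of numbers 2 and 3 rests on the labels.

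The genes, lists and tests were chosen with earlier results of these data known. Values in every library are given for the 2 genes with the smallest p of each role, those that did not pass and those below the filter with their level, and at most the 3 genes with the smallest p of each further list are named, with those called lower. Those lower genes, Top2a and Mki67 were added after their values were seen.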

Additional observations from a re-analysis of the deposited data

How the results depend on the processing

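The number of genes of the set called higher ran from 20 to 35 of 36 with the filter at 1 FPKM, beside 6.30% to 46.6% of all genes. In every alternative 0 were lower. With the filter at 5 FPKM, which tests 14 of them, 9 were called, beside 11.1% of 7816 genes. Leaving out 1 library gave 20 to 30, beside 6.30% to 18.8% of all genes. The median change of 0.34 became 0.4013 and 0.4765 with pseudocounts of 0.5 and 0.1, 0.3825 with array weights and 0.2331 with quantile normalization. It was 0.2774 with median-of-ratios scaling and 0.2541 with GC correction, each with or without the replicate block.

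Over all genes, the count called higher (1910 in the reported fit) was 867 with the filter at 5 FPKM, 785 after quantile normalization, 893 after GC correction and 911 under median-of-ratios scaling. It was 5047 with array weights, 5060 with the replicate block, 2867 with block and median-of-ratios scaling and 4364 without replicate 1 of both groups. Leaving out 1 library gave 685 (without RCE replicate 2) to 2040 (without RCE replicate 1), with 909 and 844 without control replicates 2 and 3 and 899 without RCE replicate 3. The cause was not tested.

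Among the 44 genes only Fzr1 changed sign, to -0.02036 with median-of-ratios scaling (also with the block, and with no filter) and -0.005773 after quantile normalization. Leaving out 1 library gave it -0.02725 to 0.1565.

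Combinations with no filter were chosen after seeing the data. Among all genes they gave 4874 higher with the block and 966 with median-of-ratios scaling, and the median change of the 44 genes was 0.2787 with that scaling and 0.2855 with GC correction.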
